A study of Mus musculus with 4 samples.

Results

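Notch signalling was followed through 10 of its effector and target genes in the outflow tract of mouse embryos at embryonic day 12.5, the arterial end of the embryonic heart. The genes were chosen by name as the nuclear effectors Rbpj, Maml1 and Maml2, the fringe enzymes Lfng and Mfng, and the direct targets Hey1, Hey2, Heyl, Hes1 and Nrarp. All 10 were found among the 45706 genes of the count table, and all 10 passed the filter on low counts. Sox17eKO embryos, which lack Sox17 in endothelium of the aortic root through a Cre recombinase driven by an Nfatc1 enhancer, were set against wild-type (WT) embryos, with 2 libraries per genotype. All embryos were of the C57BL/6 strain, and each library pooled the outflow tracts of 10 hearts. Sox17 encodes an endothelial transcription factor, and the comparison was made to find its targets. The labels name no allele for WT embryos other than wild type. In Sox17eKO embryos, cells keep Sox17 if the Nfatc1 enhancer was never active in them or their ancestors.

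Notch receptors are cut when a ligand on a neighbouring cell binds them, and the freed intracellular domain enters the nucleus. There it joins the DNA-binding protein RBPJ and a Mastermind-like coactivator (MAML) and switches on genes of the HES and HEY families of transcriptional repressors and Nrarp, a feedback inhibitor. Fringe enzymes add a sugar to the receptor and alter which ligands it answers to. In the mouse outflow tract the pathway is known for arterial endothelial identity, for endocardial cells that turn into cushion mesenchyme, and for smooth muscle derived from neural crest.

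Reads assigned to genes numbered between 8113463 and 21883956 per library, with WT replicate 2 the shallowest. Of uniquely and not uniquely aligned entries together, the latter made up 72.8% and 72.5% in Sox17eKO replicates 1 and 2. They made up 74.2% and 79.0% in WT replicates 1 and 2, and were left out of the gene counts. Reads that fell outside annotated features made up 34.1% and 29.5% of uniquely placed reads in Sox17eKO replicates 1 and 2, and 22.2% and 20.4% in WT replicates 1 and 2. Sox17 itself was at 2.76 and 2.82 CPM (read counts scaled to library size with TMM factors) in Sox17eKO and at 6.05 and 6.83 CPM in WT, with a log2 fold change of -1.19 ± 0.23 (SE, edgeR adjusted p = 0.00574), which did not pass without WT replicate 2 (edgeR adjusted p = 0.0519). All defining markers of endothelium, endocardium, smooth muscle, cushion mesenchyme, cardiomyocytes, leukocytes, neural crest and epicardium had reads. The lowest was Sox10, a neural crest factor, at a mean of 0.559 CPM in Sox17eKO and 0.835 CPM in WT.

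None of the 10 genes was past the threshold, a Benjamini-Hochberg adjusted p under 0.05 over 16570 genes tested with edgeR (quasi-likelihood). Over all genes tested, 5.35% were called, 4.13% higher and 1.22% lower in Sox17eKO (684 and 202 genes, or 769 and 111 with scaling by library size only). The lowest adjusted p among the 10 was 0.222, for Hes1, which was also the 1 member with an unadjusted p under 0.05, against 3471 of all genes. DESeq2 also called 0 of the 10. Its independent filtering left 9 of them without an adjusted p, so that only 1, Hey2, could be called. At an unadjusted p under 0.05 DESeq2 had 0 of the 10. Log2 fold changes ran from -0.44 to 0.24 with a median of -0.056, and the median over all genes tested was -0.010. The 95% interval excluded a 1.5-fold change in either direction for 6 of the 10 and a 2-fold change for all 10. In bulk tissue, fewer cells of a type and less RNA per cell cannot be told apart, and the tract holds many cells outside the deleted endothelium.

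**Figure D1:**
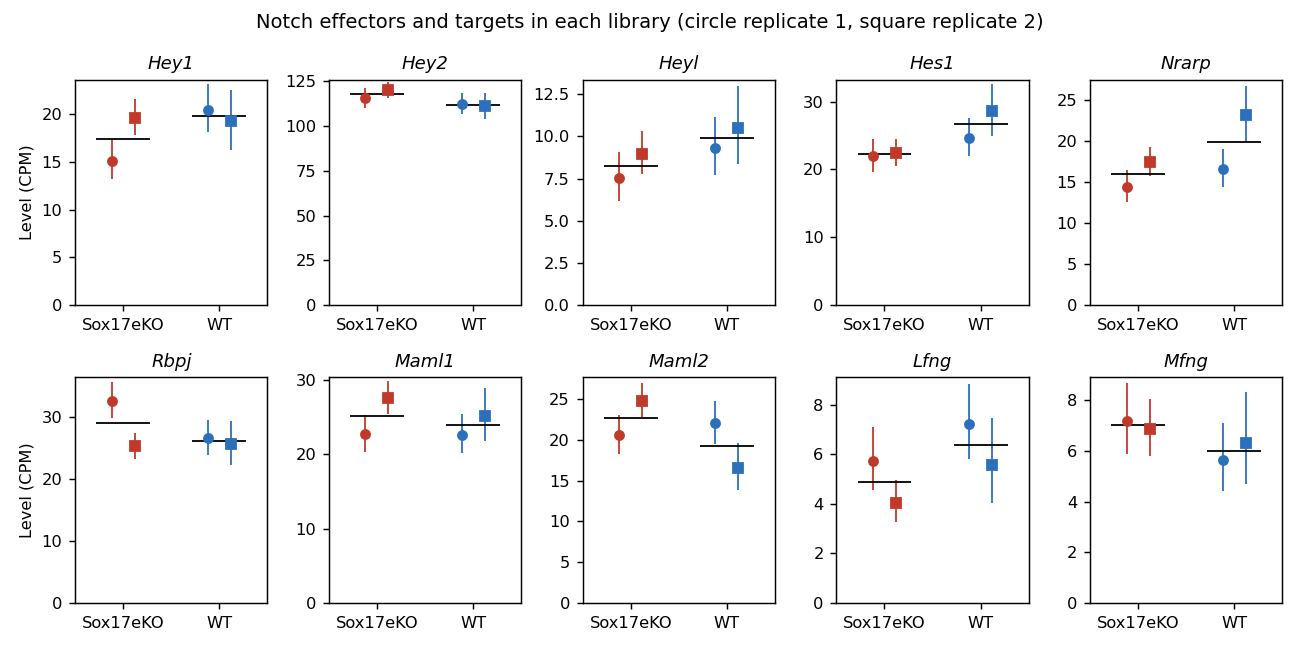
Level of each of the 10 genes in every library (CPM, linear axes from 0; circle replicate 1, square replicate 2; vertical bars are 95% Poisson intervals of the counts and horizontal lines the means of 2 pools). The Sox17eKO and WT points overlap for 6 genes, lie apart with Sox17eKO higher for Hey2 and Mfng, and lie apart with Sox17eKO lower for Heyl and Hes1.

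The windows around the annotated start sites are shown for a target, a feedback inhibitor and a fringe gene. They describe where SOX, RBPJ, and HES and HEY motifs match, and do not tell which genes are Sox17 targets. RefSeq gave such windows for 6 of the 10 genes (Hey2, Nrarp, Rbpj, Maml1, Maml2 and Lfng) on GRCm38.p6, 8 windows of 300 bases in all, each with the start site at position 251. Capitals mark the RBPJ core TGGGAA, the HES and HEY sites CACGTG and CACGCG, and the SOX core ATTGTT, on either strand. Hey2 is shown from chr10:30842734-30843033 on the minus strand, Nrarp from chr2:25180508-25180807 on the plus strand, and Lfng from chr5:140607091-140607390 on the plus strand, each printed along its own gene.
Hey2: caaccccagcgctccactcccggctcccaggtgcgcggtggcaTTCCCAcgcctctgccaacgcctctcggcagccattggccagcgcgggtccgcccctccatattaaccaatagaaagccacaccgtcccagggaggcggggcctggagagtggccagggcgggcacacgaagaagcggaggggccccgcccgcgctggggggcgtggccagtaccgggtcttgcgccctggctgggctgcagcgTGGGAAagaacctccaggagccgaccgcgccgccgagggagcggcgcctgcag
Nrarp: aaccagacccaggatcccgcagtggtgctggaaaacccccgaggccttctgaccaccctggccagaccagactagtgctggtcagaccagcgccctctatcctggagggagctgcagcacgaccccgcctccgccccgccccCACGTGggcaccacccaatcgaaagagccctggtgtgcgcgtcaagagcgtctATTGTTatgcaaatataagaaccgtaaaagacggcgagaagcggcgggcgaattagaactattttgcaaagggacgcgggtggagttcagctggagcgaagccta
Lfng: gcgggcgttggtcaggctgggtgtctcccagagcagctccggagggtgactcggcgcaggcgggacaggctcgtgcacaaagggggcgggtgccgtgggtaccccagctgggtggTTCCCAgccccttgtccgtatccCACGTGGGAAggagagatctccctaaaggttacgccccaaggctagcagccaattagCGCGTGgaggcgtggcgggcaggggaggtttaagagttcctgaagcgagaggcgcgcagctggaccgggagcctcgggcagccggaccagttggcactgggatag
Hey2 held the RBPJ core at positions 44 and 248 and no SOX core. Nrarp held the SOX core at position 196 and the CACGTG site at 143, and no RBPJ core. Lfng held the RBPJ core at positions 116 and 143, where the second shares bases with a CACGTG site at 139, and the class C site CACGCG at 196. Among the other windows, the RBPJ core was in both of Rbpj, which overlap each other, and in 1 of 2 of Maml2, and the SOX core was in Maml1 and in 1 of 2 of Maml2. Of 32851 RefSeq windows of this length, 25.6% held the RBPJ core, 10.7% the SOX core, 7.15% CACGTG and 9.27% CACGCG. The letters are matches only, and binding was not measured.

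Hey2, a repressor known from the mouse heart for patterning ventricular myocardium, was the most abundant of the 10 genes. It lies on chromosome 10 from 30832359 to 30842801 (mm10, minus strand). It had 1673 and 2640 reads, or 115 and 120 CPM, in Sox17eKO, and 1450 and 877 reads, or 112 and 111 CPM, in WT. Both Sox17eKO libraries were above both WT libraries, by a small margin. The log2 fold change was 0.076 with a 95% interval of -0.081 to 0.23 (edgeR adjusted p = 0.611), the narrowest interval of the 10.

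Hes1, the founding HES repressor and an early Notch target in many tissues, was at 22.0 and 22.5 CPM in Sox17eKO (319 and 494 reads), and at 24.7 and 28.6 CPM in WT (318 and 226 reads). Both Sox17eKO libraries were below both WT libraries. The log2 fold change was -0.25 ± 0.12 (SE), with a 95% interval of -0.49 to -0.0080 and an edgeR adjusted p = 0.222. Hes1 lies on chromosome 16 from 30064384 to 30067796, on the plus strand.

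Hey1, which represses alongside Hey2 in endothelium and endocardium of the mouse, was at 15.1 and 19.6 CPM in Sox17eKO, and at 20.5 and 19.2 CPM in WT. Replicate 1 of Sox17eKO was low and replicate 2 fell between the WT values, so the groups overlapped. Its log2 fold change was -0.19 ± 0.14 (SE, edgeR adjusted p = 0.461), and it was -0.40 without Sox17eKO replicate 2 and -0.023 without Sox17eKO replicate 1. Heyl, the HEY gene known from mouse vascular smooth muscle, was at 7.52 and 8.96 CPM in Sox17eKO, and at 9.31 and 10.5 CPM in WT. Its groups did not overlap and Sox17eKO was lower, with a log2 fold change of -0.24 ± 0.17 (SE, edgeR adjusted p = 0.43). Hey1 lies on chromosome 3 from 8663359 to 8667256 (minus strand), and Heyl on chromosome 4 from 123233556 to 123249875 (plus strand).

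Nrarp, whose protein binds the Notch intracellular domain and RBPJ and limits signalling, was at 14.4 and 17.5 CPM in Sox17eKO (209 and 384 reads), and at 16.6 and 23.2 CPM in WT (214 and 183 reads). WT replicate 2 stood above the other 3 libraries, and the groups overlapped. The log2 fold change was -0.29 ± 0.15 (SE, edgeR adjusted p = 0.302). Without WT replicate 1 it was -0.53 and past the threshold (edgeR adjusted p = 0.0435), and without WT replicate 2 it was -0.048. Nrarp is a single-exon gene on chromosome 2 from 25180758 to 25183339 (plus strand), and exons of the opposite-strand gene Gm38287 cover 79.4% of its exonic bases. Gm38287 had 1 and 3 reads in Sox17eKO and 1 and 1 in WT. How the counting treated strand is not stated, and counting without strand would set reads over the shared bases aside as ambiguous.

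Taken by family, the HEY genes kept their order in every library. Hey2 made up 80.5% and 77.1% of the summed HEY levels (CPM per kilobase of exon) in Sox17eKO, and 75.2% and 75.3% in WT. The share of Hey1 was 14.8% and 17.7% in Sox17eKO, and 19.3% and 18.3% in WT. Both Sox17eKO shares of Hey2 thus lay above both WT shares, a description of 4 libraries that was not tested. Of the 5 targets, 4 had a lower fitted level in Sox17eKO and Hey2 a higher one, with a median log2 fold change of -0.24. Of all 16570 genes tested, 8578 had a lower fitted level in Sox17eKO. The direction count of the targets was not tested.

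**Figure D2:**
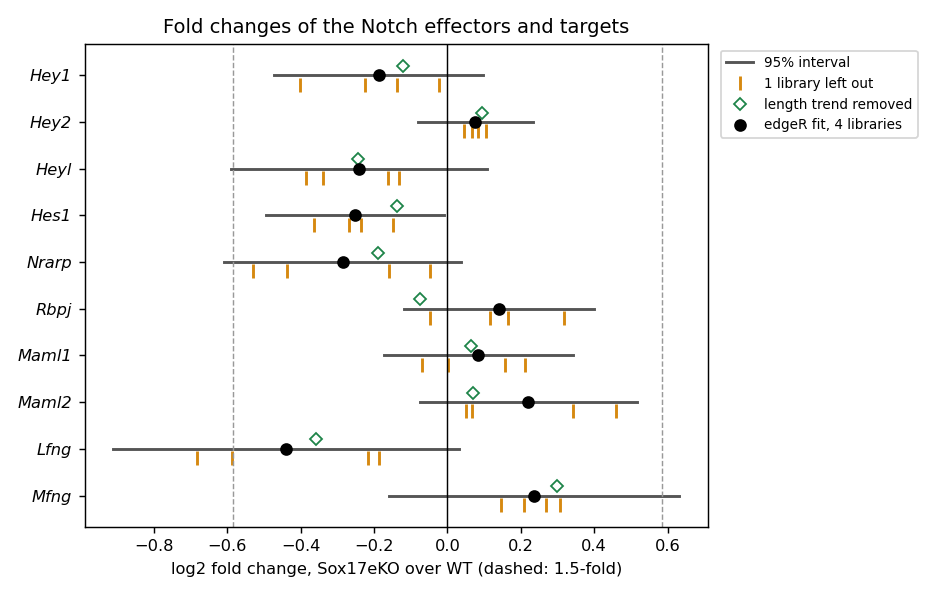
Log2 fold change of Sox17eKO over WT for each gene (black point, edgeR fit on 4 libraries) with its 95% interval (grey line), the 4 values with 1 library left out (orange ticks) and the value with a transcript length trend removed (green diamond). Every point lies between -0.44 and 0.24, and the intervals of Heyl, Nrarp, Lfng and Mfng reach past a 1.5-fold change (dashed).

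The nuclear effectors had small positive log2 fold changes, none past the threshold. Rbpj, the DNA-binding partner of the Notch intracellular domain, was at 32.7 and 25.3 CPM in Sox17eKO (474 and 557 reads), and at 26.6 and 25.7 CPM in WT (343 and 203 reads). Sox17eKO replicate 1 stood apart from the other 3 libraries. The log2 fold change was 0.14 ± 0.12 (SE, edgeR adjusted p = 0.561), and it was -0.047 without that library. Rbpj lies on chromosome 5 from 53466152 to 53657362 (plus strand). The processed pseudogene Rbpj-ps3 held 195 and 348 reads in Sox17eKO, and 207 and 108 in WT, which is a large count beside that of Rbpj, so the split of reads between the copies leaves the level of Rbpj uncertain. With the reads of both summed, an alternative chosen after seeing the data, the log2 fold change was 0.083 (edgeR adjusted p = 0.679). The sum still leaves out reads set aside as not uniquely aligned, so it does not settle the level of Rbpj.

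Maml1, a Mastermind-like coactivator, was at 22.7 and 27.6 CPM in Sox17eKO, and at 22.6 and 25.2 CPM in WT. The groups overlapped, with a log2 fold change of 0.085 ± 0.12 (SE, edgeR adjusted p = 0.753), and it was -0.070 without Sox17eKO replicate 2. Maml1 lies on chromosome 11 from 50255634 to 50292311 (minus strand).

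Maml2, its paralogue, was at 20.5 and 24.8 CPM in Sox17eKO (298 and 546 reads), and at 22.0 and 16.6 CPM in WT (284 and 131 reads). WT replicate 1 fell between the Sox17eKO values. The log2 fold change was 0.22 ± 0.14 (SE, edgeR adjusted p = 0.39), and with 1 library left out it ran from 0.051 to 0.46. Maml2 spans 411432 bases of chromosome 9 from 13297957 to 13709388 (plus strand). Phxr4, annotated on the same strand inside Maml2 and sharing no exonic base with it, rose to 134 and 139 reads in Sox17eKO, against 34 and 14 reads in WT (log2 fold change 1.74 ± 0.27 SE, edgeR adjusted p = 0.00112). Reads of unspliced Maml2 RNA and of Phxr4 cannot be told apart there.

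The 3 effectors span 36678 to 411432 bases, against 2582 to 16320 bases for the 5 targets. A fit on protein-coding genes called 749 genes as counted and 149 once a smooth dependence on exonic length and gene span was removed from the libraries, none of them among the 10. With that trend removed the log2 fold change was -0.076 for Rbpj, 0.064 for Maml1 and 0.070 for Maml2. The same step gave -0.14 for Hes1, -0.19 for Nrarp, -0.12 for Hey1 and -0.36 for Lfng, each nearer to 0 than without the step. It gave -0.24 for Heyl, 0.095 for Hey2 and 0.30 for Mfng.

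The fringe genes had the lowest read counts of the 10 and the widest intervals. Lfng, lunatic fringe, had 83 and 89 reads in Sox17eKO, and 93 and 44 reads in WT. These gave 5.72 and 4.05 CPM in Sox17eKO and 7.21 and 5.57 CPM in WT, with Sox17eKO replicate 1 between the WT values. Its log2 fold change of -0.44 was the lowest of the 10, with a standard error of 0.22, a 95% interval of -0.91 to 0.032 and an edgeR adjusted p = 0.275. Mfng, manic fringe, had 104 and 151 reads in Sox17eKO, and 73 and 50 reads in WT. These gave 7.17 and 6.87 CPM in Sox17eKO and 5.66 and 6.33 CPM in WT. Both Sox17eKO libraries were above both WT libraries, with a log2 fold change of 0.24, a 95% interval of -0.16 to 0.63 and an edgeR adjusted p = 0.509. Lfng lies on chromosome 5 from 140607320 to 140615545 (plus strand), and Mfng on chromosome 15 from 78755882 to 78773475 (minus strand).

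Set against each other, Lfng took 44.4% (95% exact Clopper-Pearson interval 37.1% to 51.8%) and 37.1% (31.0% to 43.5%) of the reads of both fringe genes in Sox17eKO. It took 56.0% (48.1% to 63.7%) and 46.8% (36.4% to 57.4%) in WT. Both Sox17eKO shares were below both WT shares, while the interval of Sox17eKO replicate 1 overlapped both WT intervals. The intervals cover counting error only, and the difference in share was not tested. Neither gene passed the threshold by itself.

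**Figure D3:**
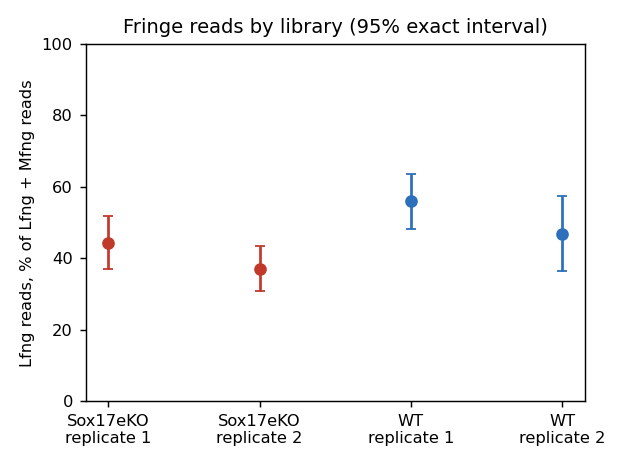
Share of Lfng reads among the reads of Lfng and Mfng in each library (percent, axis from 0 to 100), with 95% exact binomial intervals. The Sox17eKO shares of 44.4% and 37.1% lie below the WT shares of 56.0% and 46.8%, with overlapping intervals for most pairs.

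Of the 10 genes, 4 had groups that did not overlap, 2 with both Sox17eKO libraries higher (Hey2 and Mfng) and 2 with both lower (Heyl and Hes1). Over all genes tested, 26.5% had both Sox17eKO libraries above both WT libraries and 26.2% had both below, so the counts were near the shares over all genes.

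Per kilobase of exon, Hey2 stood first at a mean of 25.6 ± 0.725 CPM per kilobase in Sox17eKO and 24.3 ± 0.233 in WT (SD, n = 2 pools each). Hes1 came second at 10.9 ± 0.164 CPM per kilobase in Sox17eKO and 13.1 ± 1.36 in WT (SD, n = 2). No library of Hes1 reached down to the levels of Nrarp, which averaged 6.17 CPM per kilobase in Sox17eKO and 7.70 in WT. Counting without strand would leave the Nrarp level and its place understated, since exons of Gm38287 cover 79.4% of its exonic bases. Nrarp and Hey1 overlapped in their library values, as did Hey1 and Maml1, and Maml1 and Maml2 did not. The lowest Maml2 value, that of WT replicate 2, lay within the range of Mfng. Mfng, Lfng, Rbpj and Heyl, the lowest, overlapped with each other and lay between 1.47 and 2.88 CPM per kilobase. Heyl was lowest on average, at 1.61 CPM per kilobase in Sox17eKO and 1.94 in WT. With the length of the longest transcript in place of exonic length, Hey1 stood before Nrarp and Rbpj moved to the fifth place. Rbpj was then at 5.29 CPM per kilobase in Sox17eKO and 4.77 in WT. Its annotated exons sum to 12750 bases and its longest transcript is 5485 bases. Hey2 was then at 46.2 CPM per kilobase in Sox17eKO and 43.8 in WT. Of 20 mean levels, 12 moved by at least the SD of their pools, so the SD does not cover the choice of length.

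**Figure D4:**
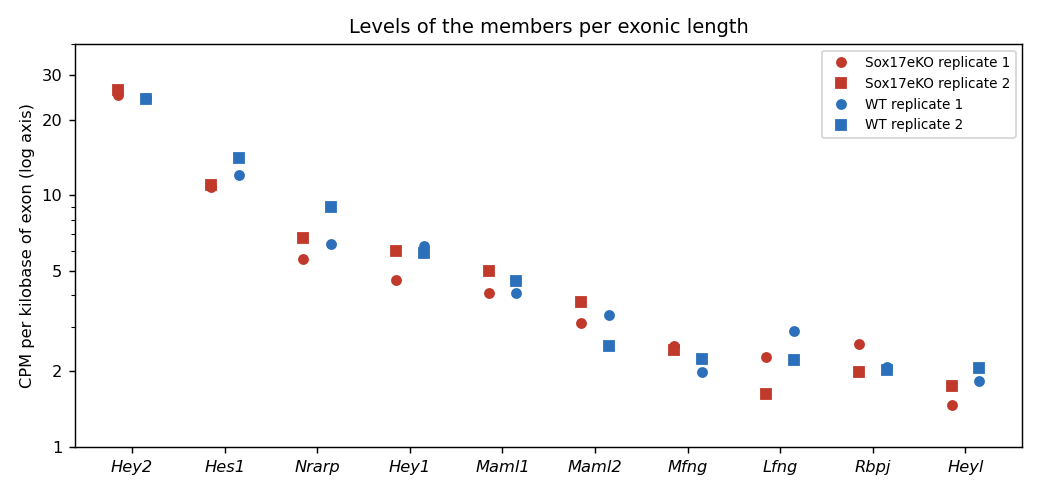
Level of each gene in CPM per kilobase of exon (log axis), in order of the mean over both genotypes, with Sox17eKO to the left of WT (circle replicate 1, square replicate 2). Hey2 and Hes1 stand above the other 8 genes in every library, and Heyl lies at 1.47 to 2.05.

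Of 100 other gene names of the pathway in 7 lists, 99 were in the table and 90 were tested. Of these 5 rose and 1 fell, which is 6.67% against 5.35% of all genes. The 90 had a median log2 fold change of 0.061.

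The lists of nuclear cofactors and of RBPJ corepressors held 4 of these calls, all higher in Sox17eKO, where 4.13% of all genes tested were called higher. The lists were chosen with earlier results of these data known, and their shares were not tested. Of 10 tested cofactors 3 rose, and the list had a median log2 fold change of 0.26. Ep300, an acetyltransferase that the Notch complex recruits, was at 76.8 and 78.0 CPM in Sox17eKO, against 59.4 and 49.5 CPM in WT (log2 fold change 0.50, edgeR adjusted p = 0.00349). Crebbp, its paralogue, was at 108 and 123 CPM in Sox17eKO, against 88.2 and 79.1 CPM in WT (0.46, edgeR adjusted p = 0.00403). Cdk8, the Mediator kinase that marks the Notch intracellular domain for turnover, was at 57.8 and 56.1 CPM in Sox17eKO, against 44.1 and 47.3 CPM in WT (0.32, edgeR adjusted p = 0.037). Of 18 corepressor genes 1 rose, Ncor1, a scaffold for histone deacetylases, at 228 and 238 CPM in Sox17eKO, against 189 and 175 CPM in WT (0.35, edgeR adjusted p = 0.0129), and the list median was 0.015. In each of these 4 genes both Sox17eKO libraries stood above both WT libraries. All 4 calls ended with the length trend removed (log2 fold changes 0.30, 0.25, 0.18 and 0.15) and without WT replicate 2. Those of Ep300 and Crebbp held with the length and GC trends removed together (edgeR adjusted p = 0.0438 and 0.0492). The Cdk8 call also ended without each of the other libraries in turn, with DESeq2 (DESeq2 adjusted p = 0.0958, and 0.397 without independent filtering), without the robust option (edgeR adjusted p = 0.0529) and after removal of both trends, length and GC (0.295). The Ncor1 call also ended without Sox17eKO replicate 2 and after removal of both trends (edgeR adjusted p = 0.0502 and 0.243).

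Of 22 tested genes reported as Notch targets in vessel and heart, Gja4 fell and Bmp10 rose, with a list median of -0.022. The list was not split into genes that Notch activates and genes that it represses, so its median does not measure Notch output. Gja4, a gap junction protein of arterial endothelium, was at 17.9 and 19.1 CPM in Sox17eKO, against 25.9 and 32.3 CPM in WT (log2 fold change -0.64, edgeR adjusted p = 0.00551). Bmp10, a ligand made by cardiomyocytes, was at 24.1 and 26.2 CPM in Sox17eKO, against 20.0 and 14.2 CPM in WT (0.53, edgeR adjusted p = 0.0329). Both stayed past the threshold with the length trend removed (-0.51 and 0.55) and neither did without WT replicate 2 (edgeR adjusted p = 0.0834 and 0.295). Bmp10 also did not without Sox17eKO replicate 2 or without the robust option (edgeR adjusted p = 0.0751 and 0.0666), nor with DESeq2 without independent filtering (DESeq2 adjusted p = 0.282).

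The other 4 lists held no called gene. The 10 tested receptors and ligands had a median log2 fold change of 0.024, and the smallest p-values belonged to Notch2 (0.15, edgeR adjusted p = 0.263) and Notch4, the endothelial receptor (-0.28, 0.278). The 13 genes of receptor processing had a median of 0.065, led by the gamma-secretase subunit gene Aph1b (0.43, edgeR adjusted p = 0.266) and the convertase gene Furin (0.15, 0.418). The 14 tested genes of endocytosis and turnover had a median of 0.13, and 11 had a higher fitted level in Sox17eKO. Over all 16570 genes tested, 8578 had a lower one. Their smallest p-values belonged to Mib1, the ubiquitin ligase that activates ligands (0.26, edgeR adjusted p = 0.062), and Fbxw7, which targets the intracellular domain for degradation (0.28, 0.13). Of 8 other HES and related genes only 3 were tested, with Bhlhe41 at 0.40 (edgeR adjusted p = 0.388) and Hes6 at -0.12 (0.605), while Hes2, Hes3, Hes5, Hes7 and Helt were too low, Hes2 with 0 reads in every library.

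**Figure D5:**
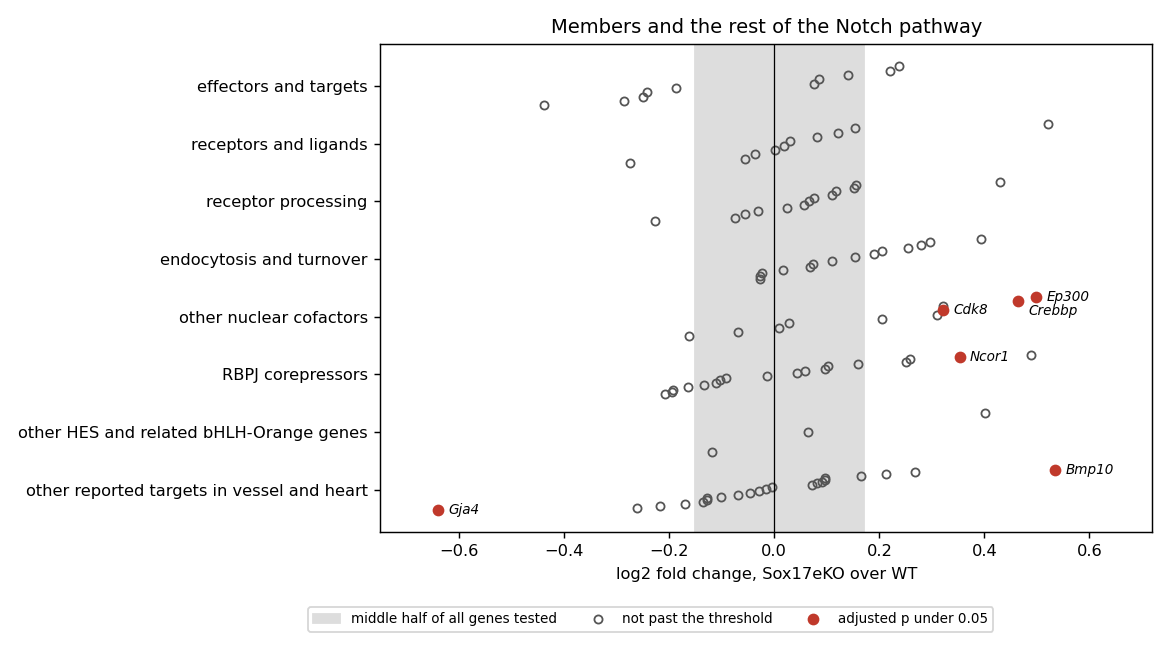
Log2 fold change of Sox17eKO over WT for the 10 effectors and targets and for the tested genes of the 7 other pathway lists (each point a gene; red, edgeR adjusted p under 0.05; grey band, the interquartile range over all genes tested, -0.15 to 0.17). The red points are Ep300, Crebbp, Cdk8, Ncor1, Gja4 and Bmp10, and none is among the 10.

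Marker levels of the cell types that the tract can hold were as follows, and their part in the values of the 10 genes was not tested. For comparison, 8578 of all 16570 genes tested had a lower fitted level in Sox17eKO. The direction counts of the marker lists were not tested. Of 12 endothelial markers 11 had a lower fitted level in Sox17eKO and Tie1 fell (log2 fold change -0.34), with a summed level of 933 to 992 CPM in Sox17eKO and 1008 to 1041 CPM in WT. All 6 endocardial markers had a lower fitted level and none passed, with a sum of 245 to 275 CPM in Sox17eKO and 274 to 286 CPM in WT. Among 8 smooth muscle markers Myocd rose (0.31) and Cnn1 fell (-0.35), with 4 fitted higher and 4 lower. The sum of the 8 was 1928 to 1979 CPM in Sox17eKO and 2111 to 2142 CPM in WT. Among 8 markers of cushion mesenchyme Vcan (0.52) and Pdgfra (0.32) rose and Dcn fell (-0.32), with 4 fitted higher and 4 lower. The sum of the 8 was 4095 to 4417 CPM in Sox17eKO and 3068 to 3698 CPM in WT. Vcan alone had a mean of 2398 CPM in Sox17eKO and 1671 CPM in WT.

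Ryr2 rose among 8 cardiomyocyte markers (0.74), of which 4 had a higher and 4 a lower fitted level. The sum of the 8 was 14215 to 15919 CPM in Sox17eKO and 13252 to 13839 CPM in WT. Myh7 alone, which did not pass, had a mean of 8253 CPM in Sox17eKO and 7103 CPM in WT. Hbb-y fell among 9 erythroid genes (-0.56), each of which was lower in fitted level, with a sum of 1684 to 2295 CPM in Sox17eKO and 2583 to 3467 CPM in WT. All 6 epicardial markers had a lower fitted level, and Upk3b (-0.35) and Lrrn4 (-0.53) fell, with a sum of 214 to 243 CPM in Sox17eKO and 273 to 287 CPM in WT. No macrophage gene of 6 and none of 3 tested neural crest genes passed, with sums of 40.2 to 41.9 and 31.1 to 37.4 CPM in Sox17eKO and 36.5 to 41.6 and 34.2 to 35.1 CPM in WT.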

How the data were processed

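RNA was measured in 4 libraries, 2 Sox17eKO and 2 WT, each a pool of 10 hearts, with replicate numbers from the sample titles. The deposited values are raw counts of reads for each Ensembl gene, with no normalization by the authors. TopHat2, HTSeq and mm10 are named per the submitters' processing notes, while versions, annotation release and strand setting are not given in the sources used here. Strand-specific libraries were made from TRIzol-extracted total RNA, per the labels' protocols. Of 45706 genes, 45143 matched a symbol in GENCODE M21 (GRCm38), which gave positions and lengths. The 5 HTSeq summary rows were left out.

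Genotypes were compared with the quasi-likelihood test of edgeR 4.0.16 (R 4.3.3) with TMM factors, filterByExpr and genotype as the only term, on 16570 genes. A standard error is the size of a log2 fold change over the root of its F, and 95% intervals use the moderated degrees of freedom. P-values and intervals set a difference against the spread between pools, with 2 residual degrees of freedom before moderation. Moderation, which draws on the spread of other genes, brought the total to a median of 18.5. Replicates were further apart than counting noise (6.01 in Sox17eKO and 4.77 in WT for chi-square over its degrees of freedom). Alternatives used DESeq2 1.42.0, limma 3.58.1 and mgcv 1.9.3 for length and GC trends. The method was tested on simulated counts.

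The members and lists were chosen with earlier results of these data known. Named were all 10 members, Sox17, genes of at least 10 reads that overlap a member, called genes of each list and, for pathway lists with none, the 2 of smallest p. Rbpj-ps3 and Gm38287 were named after their values were seen. Promoter windows are from RefSeq (GRCm38.p6).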

Additional observations from a re-analysis of the deposited data

How the results depend on the processing

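None of the 10 genes was past the threshold under 14 of 15 other settings. The exception was the fit without WT replicate 1, which called Nrarp (log2 fold change -0.53, edgeR adjusted p = 0.0435), so that the count ran from 0 to 1 with 1 library left out. Of 150 values of the members under these settings, 145 kept their direction and did not cross the threshold. This count includes 9 DESeq2 values that kept their direction but had no adjusted p, and so no side of the threshold. Those that turned were Rbpj without Sox17eKO replicate 1 and with the length trend (-0.076) or the length and GC trends (-0.084) removed, and Maml1 without Sox17eKO replicate 2. With 1 library left out Rbpj ran from -0.047 to 0.32 and Maml1 from -0.070 to 0.21. DESeq2 gave an adjusted p to 1 member of 10, and none of the 10 passed without independent filtering, which was added after seeing the data (DESeq2 adjusted p = 0.996 for each).

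Over all genes, 886 were called, against 424 with DESeq2, 263 with DESeq2 without independent filtering, 1364 with no filter on low counts, 149 with the length trend removed, 261 with length and GC trends both removed, and 192 to 1219 with 1 library left out. Of the other pathway genes 6 were called, against 2 with the length trend removed and 0 to 8 with 1 library left out. Sox17 ran from -1.29 to -1.11 with 1 library left out (edgeR adjusted p = 0.0519 without WT replicate 2), and it was -1.20 with DESeq2 without independent filtering (DESeq2 adjusted p = 0.0851). With replicate number as a block, 1684 genes, 10 other pathway genes and none of the members were called. The numbers share no stated litter or day, and deviations of same-numbered libraries did not move together (correlation over genes -0.032). Read depth limits Lfng, Mfng and Heyl most. The cause of these differences was not tested.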
